A study of Homo sapiens with 6 samples.

Results

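The Mediator complex subunits were taken as the genes of the deposited expression table whose symbol is MED followed by digits, with or without a final L. This rule found 30 of the 29744 genes listed, and all 30 passed the filter on low values, which kept 13373 genes with a mean of at least 0.5 CPM (read counts scaled to the same library total). LNCaP cells are a line from human prostate cancer that depends on androgen. CDKI-73 inhibits CDK9, a kinase needed for paused RNA polymerase II to enter productive elongation. The study states that CDKI-73 also inhibits CDK1, CDK2 and CDK7 in kinase assays, and it names effects unrelated to CDK9 as a limitation. PolyA+ RNA was sequenced from LNCaP cells in RPMI-1640 with fetal bovine serum after 4 h of exposure to CDKI-73 at 250 nM (n = 3 biological replicates) or to the vehicle, DMSO (n = 3). No genotype or other agent was named for any sample. CDKI-73 also stands in the titles of the DMSO samples, so their group was taken from the treatment label, which names the vehicle, and the directions below depend on it.

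Mediator is a large complex that carries signals from enhancer-bound transcription factors to RNA polymerase II at the promoter. Its head and middle modules contact the polymerase and the general transcription factors, its tail module is the main landing place of activators, MED14 is the backbone that joins them, and a detachable kinase module built from CDK8 or CDK19, cyclin C, MED12 and MED13 regulates the rest. MED1 is known as a coactivator of nuclear receptors. Subunits were assigned to modules from general knowledge as 11 head, 9 middle, 5 tail, 1 scaffold (MED14) and 4 kinase module members. MED27, MED28, MED29 and MED30, which lie where the head meets the tail, were counted in the head, and results that change when they are counted in the tail are given both ways.

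The luminal prostate markers of LNCaP were present in every sample, with *KLK3* at 2480 to 3336 CPM, *FOLH1* at 1147 to 1449 CPM and *HOXB13* at 252 to 357 CPM. Those of immune (*PTPRC*), endothelial (*PECAM1*) and basal (*KRT5*, *TP63*) cells were at 0 to 0.04 CPM, and the stromal marker *COL1A1* was at 9.40 to 14.9 CPM. The counted reads, inferred from the step between CPM values, were 46.1 to 60.9 M per sample, so that 1 read was worth 0.0164 to 0.0217 CPM. CDKI-73 replicate 3 stood apart from its group. Its median absolute log2 difference from the other CDKI-73 replicates over all tested genes was 0.148 and 0.159, against 0.0648 between those replicates and 0.0611 to 0.0934 among the DMSO samples. CPM values are shares of the counted reads, and in bulk samples fewer cells and less RNA per cell cannot be told apart.

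CDKI-73 lowered most Mediator mRNAs, and the modules did not move alike. Of the 30 subunits, 23 fell, 3 rose and 4 did not pass the test (limma on log2 of CPM plus 0.1, adjusted p of 0.05 or less over all tested genes). Among all tested genes 48.2% fell and 24.2% rose, so the shares of subunits, 76.7% and 10.0%, lay on the lower side of the background. All 20 head and middle subunits fell (16 under scaling to the median of gene ratios and 15 under upper quartile scaling), whereas the tail, scaffold and kinase module together had 3 that fell, 3 that rose and 4 that did not pass. With MED27 to MED30 counted in the tail, these were 16 of 16 against 7 that fell, 3 that rose and 4 that did not pass of 14. The 20 of 20 did not hold with no filter, limma without trend, robust limma or a block on the replicate number. Nor did it hold when any sample other than CDKI-73 replicate 3 was left out. In these settings *MED26*, *MED27* or both did not pass. No subunit rose by 2-fold, and 8 fell by at least 2-fold (26.7%), against 22.3% of all tested genes that fell and 1.11% that rose by as much. The share of 2-fold falls was thus near the background, and nearer still to that of the 8549 genes with a mean of 4 to 110 CPM, a range chosen after the subunits' levels were seen. In that range 56.2% of genes fell and 20.6% rose, 26.5% fell by at least 2-fold and 0.374% rose by as much. With *GAPDH*, *HPRT1* and *ACTB* as the scale the 2-fold falls were 15 of 30 (50.0%), against 32.7% of all tested genes. Under upper quartile scaling they were 7 of 30 (23.3%), against 17.2% of all tested genes. The median log2 fold change of the subunits was −0.58, beside −0.18 over all tested genes.

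The groups did not overlap for 26 of the subunits. The CDKI-73 samples were all lower than the DMSO samples for 23 (50.0% of all tested genes did so) and all higher for 3 (25.9% of all tested genes). Summed over the 30 subunits, Mediator mRNA was at 1141.0, 1166.1 and 1184.9 CPM in the DMSO samples and at 774.0, 776.8 and 716.7 CPM in the CDKI-73 samples. The treated sum was 64.9% of the DMSO sum (1164.0 ± 22.03 CPM to 755.8 ± 33.9 CPM, SD, n = 3). These counts depend on how samples are scaled. Scaling to the median of gene ratios gave 19 lower and 5 higher subunits, where 39.5% of all tested genes fell and 38.3% rose. Scaling to the upper quartile gave 18 and 6, beside 36.7% and 43.1% of all tested genes. Scaling to *GAPDH*, *HPRT1* and *ACTB* gave 26 and 0, beside 73.9% and 2.95%. These 3 genes, which the study used as qRT-PCR references, were themselves higher in CPM after CDKI-73, by 0.55, 0.32 and 0.36 on the log2 scale.

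**Figure D1:**
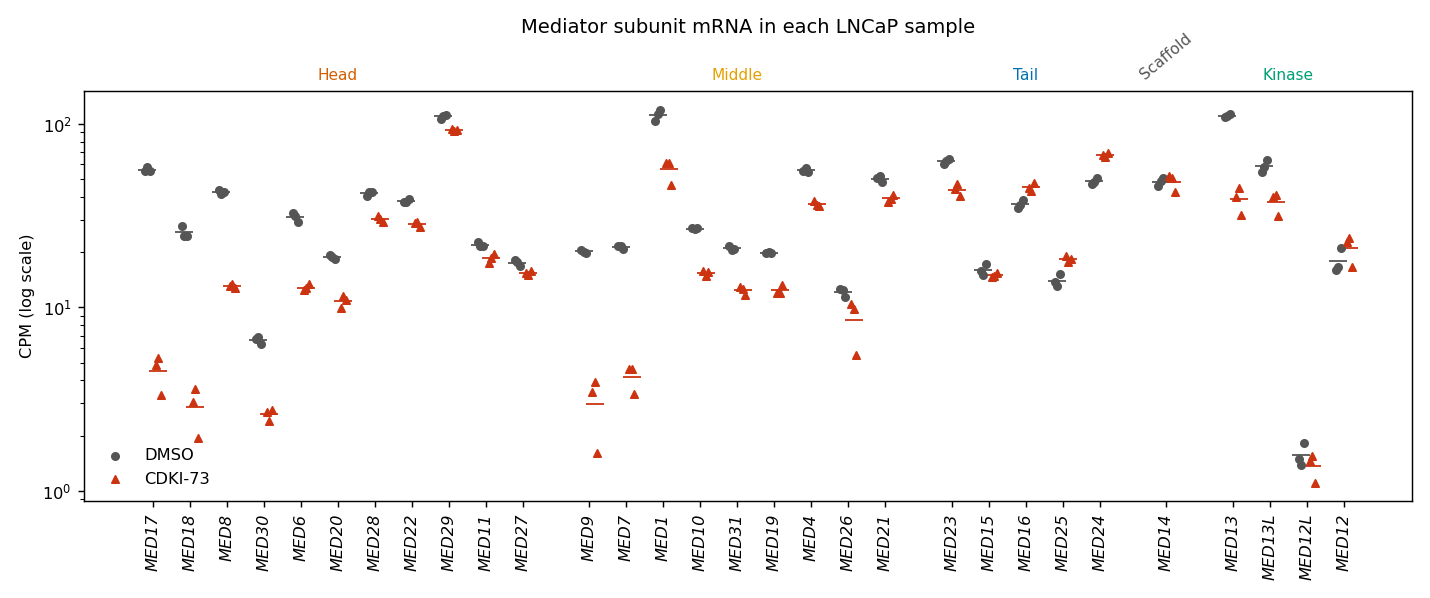
Level of each Mediator subunit mRNA in CPM on a log axis, by module, with 1 point per sample (grey circles, DMSO; red triangles, CDKI-73) and a line at each group mean. The widest gaps are those of MED17, MED18, MED9 and MED7, and the treated points lie above the DMSO points for MED16, MED24 and MED25.

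The head module had the largest falls. All 11 of its members fell (8 under scaling to the median of gene ratios or to the upper quartile). With a block on the replicate number, or without DMSO replicate 1 or 2 or CDKI-73 replicate 1 or 2, 10 fell. Falls of at least 2-fold numbered 5 (45.5%, against 22.3% of all tested genes). The median log2 fold change was −0.80, with a range from −3.64 to −0.19. *MED17* (chr11:93784227-93814963, plus strand, GENCODE 44 on hg38) encodes the subunit around which the head is built. Its level was 55.2, 58.1 and 55.5 CPM in the DMSO samples and 4.85, 5.30 and 3.34 CPM in the CDKI-73 samples. The treated samples were far below all DMSO samples, at 7.99% of their mean (56.3 ± 1.60 to 4.50 ± 1.03 CPM, SD, n = 3). The log2 fold change was −3.64 ± 0.15 (SE, limma adjusted p = 1.9e-07). *MED18* (chr1:28329002-28335965, plus strand), which with MED20 forms the movable jaw of the head, was at 27.9, 24.6 and 24.5 CPM with DMSO and at 3.04, 3.58 and 1.93 CPM with CDKI-73. The groups again did not overlap, and the log2 fold change was −3.17 ± 0.20 (SE, limma adjusted p = 1.7e-06). These are the 2 subunits that fell by at least 8-fold, as 2.53% of all tested genes did. *MED18* was short of 8-fold under scaling to the median of gene ratios (−2.97) or the upper quartile (−2.90). It was also short with a pseudocount of 1 CPM (−2.81) and without CDKI-73 replicate 3 (−2.92).

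The promoters of *MED17* and *MED18* are shown because these were the deepest falls in the complex. Each sequence covers 250 bases before to 50 bases after the RefSeq start on GRCh38.p14, *MED17* at chr11:93784032-93784331 and *MED18* at chr1:28328790-28329089, both on the plus strand. Capitals mark the ETS core CCGGAA, the GC box GGGCGG or the CCAAT box on either strand.
MED17: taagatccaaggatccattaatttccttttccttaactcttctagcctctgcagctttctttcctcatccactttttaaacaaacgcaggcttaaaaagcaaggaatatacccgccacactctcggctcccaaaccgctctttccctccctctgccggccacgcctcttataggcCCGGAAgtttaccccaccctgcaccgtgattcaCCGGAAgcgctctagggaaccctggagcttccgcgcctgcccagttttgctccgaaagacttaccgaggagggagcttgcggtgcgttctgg
MED18: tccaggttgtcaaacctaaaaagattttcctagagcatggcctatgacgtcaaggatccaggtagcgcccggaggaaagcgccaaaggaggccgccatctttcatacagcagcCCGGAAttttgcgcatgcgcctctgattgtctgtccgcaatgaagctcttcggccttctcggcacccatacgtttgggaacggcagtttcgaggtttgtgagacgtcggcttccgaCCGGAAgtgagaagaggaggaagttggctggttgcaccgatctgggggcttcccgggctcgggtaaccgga
Both carry 2 copies of CCGGAA, the core that ETS family factors bind, and neither has a GC box or a CCAAT box in this window. The 2 copies are not particular to the deepest falls. The windows of *MED11*, *MED20* and of *MED12* and *MED15*, which did not pass the test, also held 2 matches, and that of *MED31* held 3. The *MED18* promoter also holds the CRE motif TGACGTCA, which is not in capitals. A match to these letters is a description of the sequence and not a measured binding site.

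The other head subunits with 2-fold falls had lower spread. *MED8*, which tethers the MED18 and MED20 jaw to the rest of the head (chr1:43383917-43389808, minus strand), was at 43.4, 41.5 and 42.4 CPM with DMSO and at 13.1, 13.4 and 12.7 CPM with CDKI-73. Its log2 fold change of −1.69 ± 0.052 (SE, limma adjusted p = 6e-08) was the most precise of the 2-fold changes, and its treated samples lay within 1 CPM of each other. *MED6* (chr14:70581257-70600690, minus strand), a conserved head subunit, was at 32.7, 31.6 and 29.0 CPM and then at 12.4, 12.7 and 13.4 CPM (log2 fold change −1.27 ± 0.066, SE, limma adjusted p = 5.7e-07). Under upper quartile scaling *MED6* was just short of 2-fold (−0.996). *MED30* (chr8:117520713-117540262, plus strand), a subunit found in animals, had low levels of 6.73, 6.90 and 6.35 CPM that came to 2.69, 2.41 and 2.76 CPM (log2 fold change −1.31 ± 0.090, SE, limma adjusted p = 3.1e-06). None of the 3 had overlapping groups.

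The remaining 6 head subunits fell by less than 2-fold, *MED20* by 0.80, *MED28* by 0.46, *MED22* by 0.41, *MED29* by 0.25, *MED11* by 0.24 and *MED27* by 0.19 on the log2 scale. *MED27* (chr9:131852928-132079867, minus strand) was at 18.1, 17.7 and 16.8 CPM with DMSO and at 15.4, 14.9 and 15.8 CPM with CDKI-73, the smallest fall of the module (−0.19 ± 0.060, SE, limma adjusted p = 0.020). The groups lay close together without overlap, and the call was lost when any of 4 samples was left out (limma adjusted p 0.052 to 0.075). Under upper quartile scaling the changes of *MED11*, *MED27* and *MED29* turned to 0.03, 0.08 and 0.02, none past the adjusted p. Among the 7 head subunits without MED27 to MED30, all fell, and the median was −1.27. Of these 7, 4 fell by at least 2-fold (57.1%, against 22.3% of all tested genes).

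**Figure D2:**
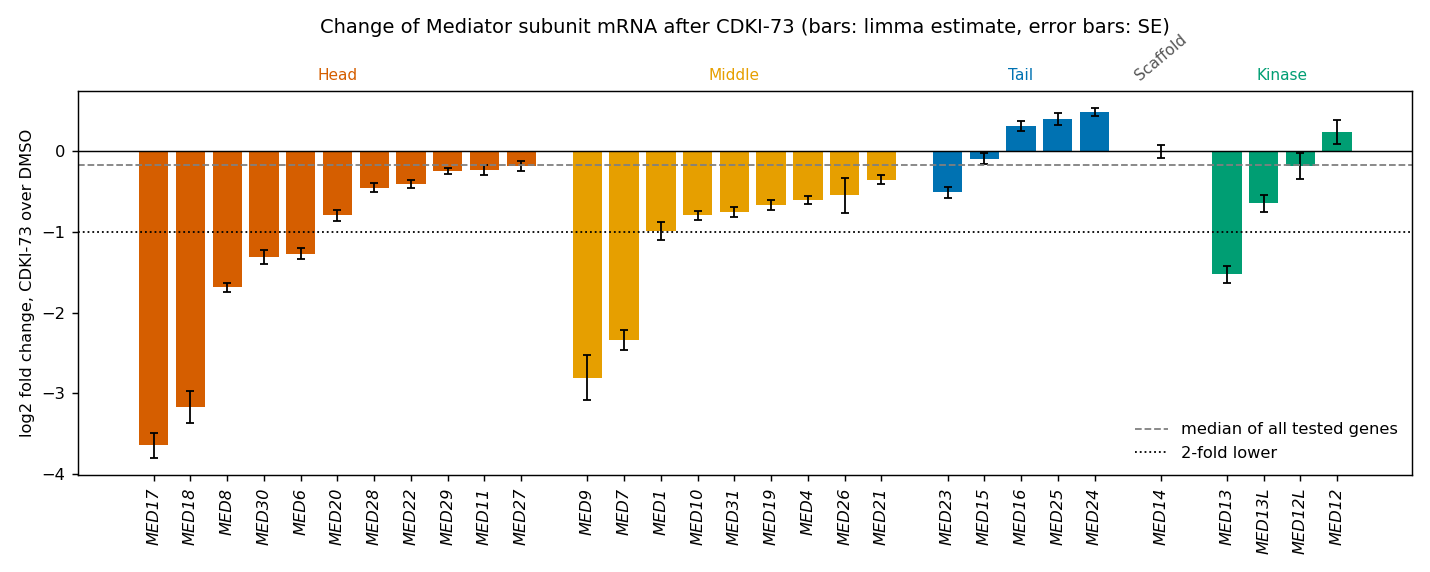
Log2 fold change of each Mediator subunit mRNA, CDKI-73 over DMSO, by module (bars, limma estimate; error bars, SE), with the median of all tested genes dashed and a 2-fold fall dotted. Every head and middle bar points down, from −3.64 for MED17 to −0.19 for MED27, while MED16, MED25 and MED24 point up by 0.30 to 0.47. Upper quartile scaling turns MED11, MED27 and MED29 upward, and scaling to the reference genes turns MED16 and MED25 downward.

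The middle module also fell throughout. All 9 members passed the test in the lower direction (8 under scaling to the median of gene ratios and 7 under upper quartile scaling). With no filter, limma without trend, robust limma or any DMSO sample left out, 8 passed. Falls of at least 2-fold numbered 2 (22.2%, near the 22.3% of all tested genes). The median log2 fold change was −0.76, with a range from −2.81 to −0.36. *MED9* (chr17:17476994-17493221, plus strand), which pairs with MED4 in the middle module, was at 20.6, 20.1 and 19.7 CPM in the DMSO samples. In the CDKI-73 samples it was at 3.44, 3.91 and 1.61 CPM. Its fall of −2.81 ± 0.28 on the log2 scale (SE, limma adjusted p = 3.2e-05) had the largest SE of all 30 subunits, and replicate 3 was lowest. Without that replicate the log2 fold change was −2.43. *MED7* (chr5:157137424-157159019, minus strand), whose long helices pair with MED21 to form the hinge of the middle module, was at 21.6, 21.7 and 20.7 CPM with DMSO and at 4.62, 4.59 and 3.36 CPM with CDKI-73 (log2 fold change −2.34 ± 0.12, SE, limma adjusted p = 6.1e-07). Its partner *MED21* had the smallest fall of the module, from 50.5, 51.9 and 48.2 CPM to 37.6, 39.1 and 40.8 CPM (log2 fold change −0.36 ± 0.053, SE, limma adjusted p = 0.00039). The mRNAs of this pair thus ended at 19.6% and 78.1% of their DMSO means.

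The promoters of *MED7* and *MED9* are shown as the deepest falls of the middle module, from RefSeq on GRCh38.p14, *MED7* at chr5:157142816-157143115 on the minus strand and *MED9* at chr17:17476750-17477049 on the plus strand. Capitals mark the same 3 motifs as above, on either strand.
MED7: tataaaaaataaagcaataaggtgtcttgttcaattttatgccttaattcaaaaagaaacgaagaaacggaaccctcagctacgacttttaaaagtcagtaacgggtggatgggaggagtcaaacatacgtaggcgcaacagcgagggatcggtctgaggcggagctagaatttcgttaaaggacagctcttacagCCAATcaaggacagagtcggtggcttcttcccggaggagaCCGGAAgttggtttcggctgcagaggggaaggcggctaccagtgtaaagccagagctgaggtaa
MED9: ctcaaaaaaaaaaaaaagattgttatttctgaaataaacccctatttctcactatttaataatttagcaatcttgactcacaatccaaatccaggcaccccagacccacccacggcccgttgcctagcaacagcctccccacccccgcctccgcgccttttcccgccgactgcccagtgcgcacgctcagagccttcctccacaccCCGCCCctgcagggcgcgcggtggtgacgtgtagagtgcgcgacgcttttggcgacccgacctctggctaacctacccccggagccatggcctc
The *MED7* window holds 1 CCGGAA and 1 CCAAT, and the *MED9* window holds 1 GC box and no CCGGAA. The RefSeq start of *MED7* lies inside the longer span that GENCODE gives the gene.

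*MED1* and *MED26* are the middle subunits with the best known partners. *MED1* (chr17:39404285-39451272, minus strand), which carries the receptor contacts of the complex, was at 102.9, 113.3 and 119.5 CPM with DMSO and at 61.3, 61.4 and 46.4 CPM with CDKI-73. It was at 50.3% of its DMSO mean, just short of the 2-fold threshold (log2 fold change −0.998 ± 0.11, SE, limma adjusted p = 6.6e-05). *MED26* (chr19:16574907-16629062, minus strand), which brings the super elongation complex to Mediator, was at 12.6, 12.4 and 11.4 CPM with DMSO. In the CDKI-73 samples it was at 10.4, 9.73 and 5.49 CPM, so that the spread came from replicate 3. The log2 fold change was −0.55 ± 0.22 (SE, limma adjusted p = 0.047), and the call was lost under 8 of the 16 other settings tried (limma adjusted p 0.055 to 0.25). Without CDKI-73 replicate 3 the log2 fold change was −0.27. *MED10*, *MED31*, *MED19* and *MED4* fell by 0.80, 0.76, 0.67 and 0.61 on the log2 scale.

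The tail module went the other way. Of its 5 members 3 rose (4 under upper quartile scaling and 0 with the reference genes as the scale), 1 fell and 1 did not pass, and the median log2 fold change was 0.30, with a range from −0.52 to 0.47. *MED24* (chr17:40019097-40061215, minus strand) was at 47.1, 48.1 and 50.4 CPM with DMSO and at 67.3, 65.8 and 69.4 CPM with CDKI-73. This was the largest rise in the complex, to 139.0% of the DMSO mean (log2 fold change 0.47 ± 0.048, SE, limma adjusted p = 3.5e-05). *MED16*, a neighbor of MED24 and MED23 in the tail (chr19:867630-893218, minus strand), rose by 0.30 ± 0.062 on the log2 scale (SE, limma adjusted p = 0.0025). *MED25*, a target of viral and cellular activators (chr19:49818282-49840383, plus strand), rose by 0.39 ± 0.073 (SE, limma adjusted p = 0.0015). The groups did not overlap for any of these 3.

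*MED23* fell and *MED15* did not pass the test. *MED23*, which binds the activator ELK1 (chr6:131573966-131628242, minus strand), was at 60.0, 62.9 and 64.6 CPM with DMSO and at 44.03, 47.0 and 40.3 CPM with CDKI-73 (log2 fold change −0.52 ± 0.065, SE, limma adjusted p = 0.00014). All treated samples were below all DMSO samples. *MED15*, a target of the SREBP factors, had overlapping groups (log2 fold change −0.10 ± 0.069, SE, limma adjusted p = 0.23). It passed as higher under upper quartile scaling (0.18, limma adjusted p = 0.046) and as lower with the reference genes (−0.50, limma adjusted p = 0.00028). The sign of the tail changes depends on scaling. With the 3 reference genes as the scale, *MED24* was at 0.07, *MED25* at −0.02 and *MED16* at −0.11 on the log2 scale, none past the adjusted p, and the tail median was −0.11. With MED27 to MED30 counted in it, the tail had 5 that fell and 3 that rose of 9, and a median of −0.19. The tail median lay above the head median by 1.10 on the log2 scale as fitted. Scaling shifts all genes almost alike, and the filter and model options left both medians unchanged, so these settings could not test the distance. It was 1.11 and 1.05 with a pseudocount of 0.01 and 1 CPM, and 1.04 to 1.18 with a sample left out.

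The promoter of *MED24* is shown as that of the largest rise, beside those of the largest falls, from RefSeq on GRCh38.p14 at chr17:40054359-40054658 on the minus strand and with the same capitals.
MED24: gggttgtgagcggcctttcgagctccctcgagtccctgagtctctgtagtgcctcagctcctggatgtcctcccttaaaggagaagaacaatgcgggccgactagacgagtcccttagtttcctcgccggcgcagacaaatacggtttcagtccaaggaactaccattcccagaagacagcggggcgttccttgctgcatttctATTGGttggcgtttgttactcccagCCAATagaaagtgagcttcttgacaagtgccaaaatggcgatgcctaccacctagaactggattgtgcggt
It holds 2 CCAAT boxes, 1 on each strand, and no CCGGAA. As for *MED7*, the RefSeq start lies inside the longer GENCODE span of the gene. RefSeq promoter windows were matched for 22 of the 30 subunits, including 4 of the 8 with 2-fold falls. For genes with more than 1 promoter entry, as for 2 of the subunits, only the first entry was used. Those not matched were *MED6*, *MED8*, *MED13*, *MED14*, *MED21*, *MED22*, *MED28* and *MED30*. CCGGAA was found in 9 of the 22 (40.9%), against 30.5% of the 9487 windows of tested genes and 17.6% of all 27305 windows. The 9 were those of *MED7*, *MED11*, *MED12*, *MED15*, *MED17*, *MED18*, *MED20*, *MED29* and *MED31*, so that it occurred in subunits that fell deeply and in 2 that did not pass the test. GGGCGG was found in 13 (59.1%, against 70.3% for tested genes), CCAAT in 8 (36.4% against 37.3%), TATAAA in 2 (9.09% against 5.20%) and the E-box CACGTG in 1 (4.55% against 10.3%). TGACGTCA was found in 1, that of *MED18* (4.55% against 3.31%). All motifs were searched on both strands, and no matches overlapped in the 5 sequences shown. Over the 22 windows, matches of different capitalised motifs did not overlap, but copies of the same motif did in *MED11*, *MED13L*, *MED26* and *MED31*. The median GC content was 58.5% for the subunits and 65.3% for tested genes.

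The scaffold subunit *MED14* (chrX:40648305-40735858, minus strand) was at 46.1, 48.8 and 50.5 CPM with DMSO and at 51.7, 50.6 and 42.4 CPM with CDKI-73. The groups overlapped, and the log2 fold change was −0.01 ± 0.081 (SE, limma adjusted p = 0.92). Its direction was not set by these data, as it was 0.08 without CDKI-73 replicate 3, 0.27 under upper quartile scaling (limma adjusted p = 0.012) and −0.42 with the reference genes (limma adjusted p = 0.0062). Ratios to *MED14* within a sample do not depend on scaling and show the uneven change. *MED17* went from 1.16 ± 0.055 CPM per CPM of *MED14* to 0.0924 ± 0.013 (SD, n = 3), and *MED18* from 0.532 ± 0.064 to 0.0583 ± 0.013. *MED24* went from 1.002 ± 0.018 to 1.41 ± 0.19.

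In the kinase module the paralogs moved unequally. Of its 4 MED members 2 fell and 2 did not pass (1 of these rose under scaling to the median of gene ratios or to the upper quartile), with a median log2 fold change of −0.42. *MED13* (chr17:61942605-62065278, minus strand), which links the kinase module to the core, was at 109.5, 109.8 and 113.3 CPM with DMSO. With CDKI-73 it was at 39.99, 44.4 and 31.7 CPM, which left 34.9% of the DMSO mean (log2 fold change −1.53 ± 0.11, SE, limma adjusted p = 4.1e-06). Its paralog *MED13L* (chr12:115957905-116277693, minus strand) was at 54.4, 58.0 and 63.3 CPM and then at 39.9, 40.8 and 31.5 CPM (log2 fold change −0.65 ± 0.10, SE, limma adjusted p = 0.00059). Both had treated samples below all DMSO samples.

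*MED12*, the activator of the kinase through cyclin C (chrX:71118543-71144103, plus strand), was at 16.1, 16.6 and 21.0 CPM with DMSO and at 22.7, 23.9 and 16.6 CPM with CDKI-73. DMSO replicate 3 was high and CDKI-73 replicate 3 low, and the groups overlapped (log2 fold change 0.23 ± 0.15, SE, limma adjusted p = 0.20). Without CDKI-73 replicate 3 the log2 fold change was 0.39 (limma adjusted p = 0.0034). It also passed as higher under scaling to the median of gene ratios (0.43, limma adjusted p = 0.024) and to the upper quartile (0.50, limma adjusted p = 0.013), and with the reference genes as the scale it was −0.18 (limma adjusted p = 0.38). *MED12L* (chr3:151085286-151437072, plus strand) was the lowest of the 30 subunits, at 1.49, 1.39 and 1.83 CPM with DMSO and at 1.46, 1.54 and 1.11 CPM with CDKI-73, with overlapping groups (log2 fold change −0.19 ± 0.16, SE, limma adjusted p = 0.32). CDKI-73 replicate 3 was the lowest of its group for all 4 of these genes, for 17 of the 30 subunits and for 45.2% of all tested genes.

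Because a ratio of paralogs within a sample depends little on scaling, it was compared between groups. The log2 ratio of *MED13* to *MED13L* was 1.01, 0.92 and 0.84 in the DMSO samples and 0.0029, 0.12 and 0.0077 in the CDKI-73 samples. The ratio therefore dropped by 0.88 (exact permutation test, two-sided, p = 0.1, the smallest that 3 samples against 3 can give). The log2 ratio of *MED12* to *MED12L* was 3.34, 3.49 and 3.45 with DMSO and 3.87, 3.87 and 3.79 with CDKI-73, higher by 0.42 (exact permutation test, two-sided, p = 0.1). The groups did not overlap for either ratio, and with this number of samples the test cannot reach an adjusted p of 0.05. These ratios are of CPM plus 0.1 and do not compare the molecules of genes with different transcript lengths. With a pseudocount of 0.01 and 1 CPM the *MED12* to *MED12L* difference was 0.43 and 0.34.

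**Figure D3:**
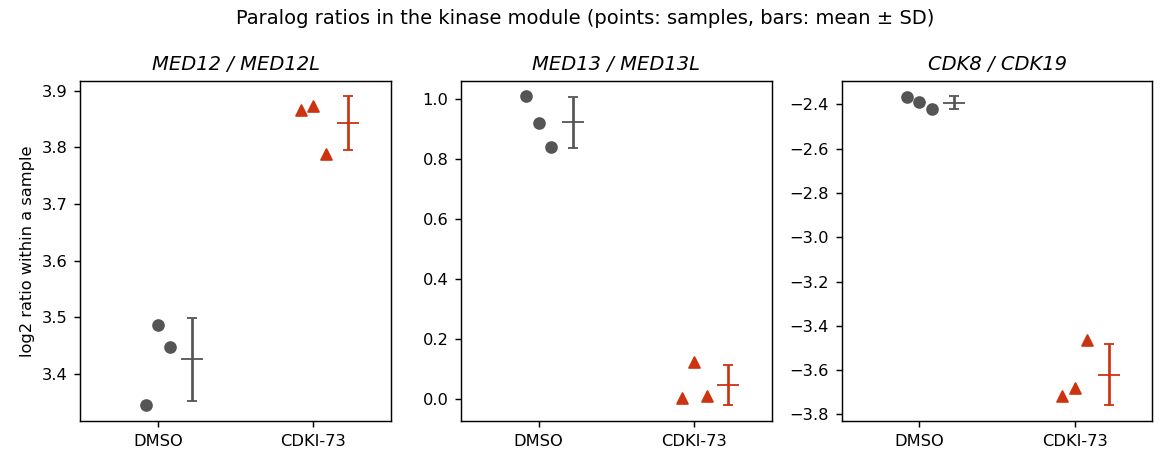
Log2 ratio of CPM of paralogs within a sample for DMSO and CDKI-73 (points, samples; bars, mean ± SD, n = 3), each panel with its own axis that does not start at 0. MED12/MED12L was higher by 0.42, MED13/MED13L lower by 0.88 and CDK8/CDK19 lower by 1.23 in the CDKI-73 samples, with no overlap in any panel.

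The partners of MED12 and MED13 in the kinase module differed too. *CDK8* (chr13:26254104-26420982, plus strand), 1 of the alternative kinases, was at 40.9, 40.03 and 38.9 CPM with DMSO and at 12.2, 12.8 and 13.7 CPM with CDKI-73 (log2 fold change −1.63 ± 0.062, SE, limma adjusted p = 1.2e-07). Its paralog *CDK19* (chr6:110609978-110815958, minus strand) was at 211.4, 210.3 and 209.1 CPM and then at 161.5, 165.0 and 151.9 CPM (log2 fold change −0.40 ± 0.045, SE, limma adjusted p = 6.6e-05). Both genes fell with no overlap between groups. The log2 ratio of *CDK8* to *CDK19*, a pair chosen after its values were seen, was −2.39 ± 0.028 with DMSO and −3.62 ± 0.14 with CDKI-73 (SD, n = 3), a difference of −1.23 (exact permutation test, two-sided, p = 0.1). *CCNC*, which encodes cyclin C (chr6:99542387-99568825, minus strand), was at 185.8, 178.6 and 166.3 CPM with DMSO and at 188.5, 197.9 and 201.1 CPM with CDKI-73. It passed in the higher direction by a small margin (log2 fold change 0.15 ± 0.053, SE, limma adjusted p = 0.035). The call was lost with no filter, with limma without trend, with the replicate block and without DMSO replicate 2, DMSO replicate 3 or CDKI-73 replicate 2 (limma adjusted p 0.052 to 0.12), and with the reference genes as the scale it was at −0.26 (limma adjusted p = 0.0037). Adjusted over the 3 paralog ratios compared, each p stayed at 0.1.

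Levels of different subunits were compared per kilobase (kb) of the GENCODE canonical transcript. With DMSO, *MED29* was highest at 30.6 CPM per kb and *MED12L* lowest at 0.145 CPM per kb, and the same 2 genes were highest and lowest with CDKI-73 (25.7 and 0.127 CPM per kb). The median subunit level went from 11.5 to 6.34 CPM per kb. The levels also lay further apart after CDKI-73, with an SD of the log2 levels over the subunits without *MED12L* of 0.90 with DMSO and 1.27 with CDKI-73, given as a description. *MED17* went from rank 16 to rank 29 of the 30, *MED24* from rank 9 to rank 3 and *MED16* from rank 14 to rank 5.

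As shares of the summed CPM per kb, which do not depend on scaling, the head took 42.7% ± 0.74 with DMSO and 37.7% ± 0.80 with CDKI-73 (SD, n = 3), and the middle took 37.0% ± 0.38 and 32.1% ± 0.55. The tail share went from 13.4% ± 0.59 to 23.2% ± 0.68. In single samples it was 13.0%, 13.2% and 14.1% with DMSO and 23.1%, 22.6% and 24.0% with CDKI-73, with no overlap. In CPM the summed tail level was 177.6 ± 7.53 and 189.5 ± 1.49, whereas the summed head level was 409.9 ± 2.35 and 231.5 ± 2.39. The kinase module share was 5.24% ± 0.28 and 4.45% ± 0.66, and the scaffold share 1.65% ± 0.072 and 2.52% ± 0.23. With MED27 to MED30 counted in the tail, the head share was 28.1% ± 0.79 and 20.1% ± 0.69 and the tail share 28.1% ± 0.57 and 40.9% ± 1.09, so the head share was again lower and the tail share higher.

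**Figure D4:**
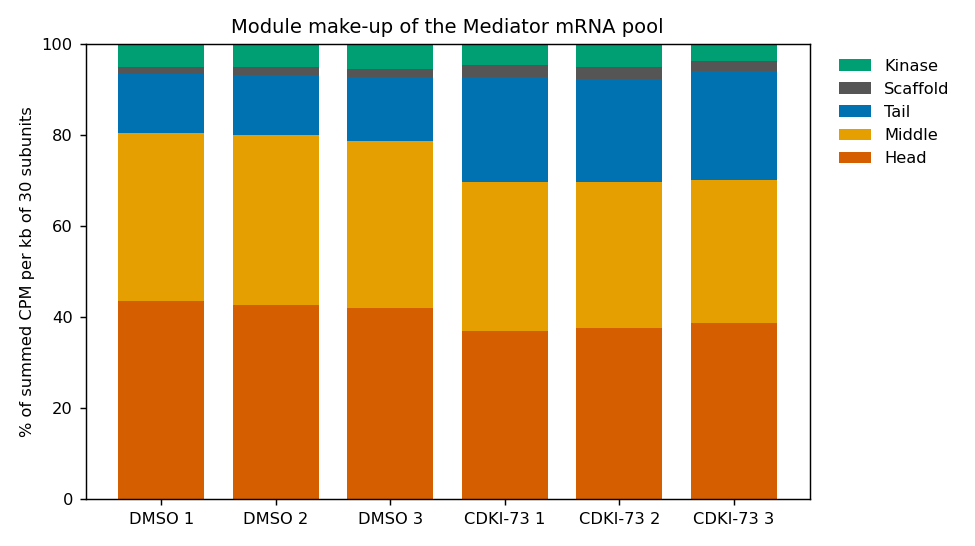
Share of each module in the summed CPM per kb of the 30 subunits, as a stacked bar from 0 to 100% for each sample. The tail takes 13.0% to 14.1% in the DMSO samples and 22.6% to 24.0% in the CDKI-73 samples, and the head and middle shares are lower in the latter.

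The subunits that did not fall had many exons, a grouping chosen after the values were seen and given as a description. The canonical transcripts of the 7 that rose or did not pass had 16 to 45 exons (median 26) over gene spans of 22.1 to 351.8 kb. All 7 were tail, scaffold or kinase module subunits, so this grouping largely repeats that by module. The relation to exon number over all tested genes was not examined. The 4 that fell by at least 4-fold (*MED7*, *MED9*, *MED17* and *MED18*) had 2 to 12 exons (median 2.5) over 6.96 to 30.7 kb. The 15 that fell by less than 2-fold had 3 to 31 exons (median 4). Many exons did not go with a rise in every case, as *MED1*, *MED13*, *MED13L* and *MED23* fell with 17, 30, 31 and 29 exons. Across the 30 genes, which are not independent replicates and share the same 6 libraries, Spearman's rho between the number of exons and the log2 fold change was 0.46 (Pearson's r 0.36), that for gene span 0.33 and that for the DMSO level per kb −0.20.

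Shared exons limit some of these values, since the libraries were stranded but the strand column taken from the counting and its gene annotation were not given in the sources used here. In GENCODE 44, more than 25% of the canonical transcript was shared with another gene on the same strand for *MED17* (42.4%), *MED20* (32.9%) and *MED26* (45.6%), and on the opposite strand for *MED31* (75.6%, with *TXNDC17*) and *MED28* (32.4%, with *FAM184B*). For 13 subunits no exon was shared. *MED18*, *MED9*, *MED24* and *MED13* were among these 13, and *MED17* was not.

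Complexes that work with Mediator were read the same way, from lists written from general knowledge. All 12 members of the super elongation complex, which holds CDK9 and its cyclins, fell, 3 of them by at least 2-fold, with a median log2 fold change of −0.88. *CCNT1* and *CCNT2*, which encode the cyclin T partners of CDK9, had the largest changes, −2.19 ± 0.36 and −1.92 ± 0.13 (SE, limma adjusted p = 0.00068 and 3.4e-06). Of the 7 cohesin and loader genes, whose products join enhancers and promoters with Mediator, 5 fell, 0 rose and 2 did not pass, with a median of −0.59, led by the loader genes *NIPBL* (−1.85 ± 0.13, SE, limma adjusted p = 3.5e-06) and *MAU2* (−1.10 ± 0.050, SE, limma adjusted p = 3e-07).

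The RNA polymerase II subunits differed from the head and middle of Mediator in their counts. Of 12, 4 fell and 5 rose, with a median log2 fold change of 0.17, which turned to −0.24 with the reference genes as the scale. *POLR2D* had the largest fall (−1.54 ± 0.072, SE, limma adjusted p = 3.3e-07) and *POLR2F* the largest rise (0.51 ± 0.075, SE, limma adjusted p = 0.00036). Of the 13 TFIID members tested, the factors that bind the core promoter, 8 fell and 3 rose with a median of −0.29, and *TAF5* and *TAF8* changed most (−2.85 ± 0.087 and −2.12 ± 0.081, SE, limma adjusted p = 5.8e-08 and 1.3e-07). Integrator cuts and terminates nascent transcripts. Of 11 of its subunits, those with symbols made of INTS and digits, 8 fell and 2 rose with a median of −0.56. Among them *INTS5* and *INTS6* changed most (−2.59 ± 0.12 and −1.61 ± 0.068, SE, limma adjusted p = 2.9e-07 and 1.9e-07). Subunits under other symbols were not counted, such as *CPSF3L*, the older symbol of *INTS11*, which rose (0.41 ± 0.056, SE, limma adjusted p = 0.00022). These counts stand beside the 48.2% of all tested genes that fell and the 24.2% that rose, and no difference between these complexes was tested.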

How the data were processed

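RNA-seq of LNCaP cells was analyzed from 1 deposited table of CPM per gene for 6 samples. The authors checked reads with FastQC, mapped them to hg38 with STAR, counted them per gene and, per the submitters' processing notes, used edgeR (3.3) with R (3.2.3). The CPM values deposited by the authors carry no counts, and all columns have the same total within rounding. Genes with a mean of at least 0.5 CPM were tested with limma 3.58.1 (lmFit and eBayes with an intensity trend) in R 4.3.3 on log2(CPM + 0.1), without covariates, with Benjamini-Hochberg adjustment over 13373 genes. A fold change on this scale understates the change of low genes. Calls required an adjusted p of 0.05 or less, and 2-fold calls also a change of at least 2-fold. Replicates are biological replicates per the study's methods.

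The members and lists were chosen with earlier results of these data known, and modules were assigned from general knowledge. Values in every sample are given for members called at least 2-fold, the lowest and highest of each module, *MED12*, *MED12L*, *MED13*, *MED13L*, *MED14*, *MED1*, *MED26*, *CDK8*, *CDK19* and *CCNC*. Of other lists up to 2 members with the largest change are named. *TAF7* was not analyzed here. Coordinates, exons and transcript lengths are from GENCODE 44, and promoters from RefSeq. Python 3.11.15 with pandas 2.3.3, scipy 1.17.1 and matplotlib 3.10.9 was used for the ratios and plots. The alternatives were a pseudocount of 0.01 or 1 CPM, a mean of at least 2 CPM or no filter, 3 other scalings, limma without trend or robust, a block on the replicate number, leaving out each sample, and other module assignments.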

Additional observations from a re-analysis of the deposited data

How the results depend on the processing

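Pseudocount, filter and limma options moved few results. No filter, limma without trend and robust limma each left 22 subunits lower and 3 higher. The median of all genes shifted by 0.196 (median of gene ratios), 0.269 (upper quartile) and −0.40 (*GAPDH*, *HPRT1* and *ACTB*), and most changed calls came from these scalings. In that order, subunits higher were 5, 6 and 0, and subunits at least 2-fold lower were 8, 7 and 15. All genes higher were 5122, 5760 and 395, all genes at least 2-fold higher 229, 279 and 79, and all genes lower 9882 with the reference genes. All genes at least 2-fold higher were 52 with a pseudocount of 1 CPM, 377 with no filter and 52 at a mean of at least 2 CPM. The head median was −0.60, −0.52 and −1.20 under the 3 scalings, −0.75 with a pseudocount of 1 CPM and −1.27 with MED27 to MED30 in the tail. The middle median was −0.56, −0.48 and −1.16. The tail median was 0.50, 0.58 and −0.11, and −0.19 with MED27 to MED30. The kinase median was −0.15 (upper quartile), −0.81 (reference genes) and −0.65 (mean of at least 2 CPM, which leaves out *MED12L*). Log2 fold changes that turned sign were, under the median of gene ratios, *MED27* 0.0104, *MED15* 0.10, *MED14* 0.19 and *MED12L* 0.00094, under the upper quartile, *MED11* 0.031, *MED27* 0.084, *MED29* 0.024, *MED15* 0.18, *MED14* 0.27 and *MED12L* 0.071, and with the reference genes, *MED16* −0.11, *MED25* −0.016, *MED12* −0.18, *CCNC* −0.26 and the RNA polymerase II median −0.24.

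With each sample left out in turn, 21 to 23 subunits were lower, 3 to 4 higher (4 without CDKI-73 replicate 3) and 8 to 9 at least 2-fold lower, and the head median was −0.85 to −0.74. *MED14* ranged from −0.063 to 0.080, above 0 without DMSO replicate 3 (0.020) or CDKI-73 replicate 3. Same-numbered samples did not deviate together (correlations −0.295, 0.106 and −0.227, beside −0.223 to 0.339 for the other pairs). Because the values were centred within groups of 3, these correlations cannot show whether the numbers pair the samples. With the replicate block, 22 subunits were lower, 3 higher and 8 at least 2-fold lower, and *MED27* (limma adjusted p = 0.063) and *CCNC* (limma adjusted p = 0.092) no longer passed.

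CPM give shares of reads, so a change of all mRNA cannot be seen, and 3 samples a group limit an exact test to p = 0.1. The cause of the changes under other scalings was not tested.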
